A study of Bos grunniens with 36 samples.

Results

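The adipocyte marker genes examined here are ADIPOQ, LEP, FABP4, PLIN1, LIPE and PNPLA2, 6 of the 20110 genes and unnamed transcripts measured in the yak mammary gland. Members were found by the gene name that the scanner files give to each array probe. Of 12 such probes on the array 10 are in the normalized table, and each gene is represented by its probe with the highest mean over 36 arrays. The samples are mammary gland biopsies of 4 female yaks (Bos grunniens), numbered 1 to 4 as in the labels, each taken at 9 days relative to calving. The groups are day -30 and day -15, in late pregnancy, and day +1, +15, +30, +60, +120, +180 and +240, in lactation, with 4 arrays a day and no agent, transgene or deletion in any of them. RNA of each biopsy was put on 1 single-colour array of a cattle design, and the study asked how the transcriptome differs from day -30 and from 1 sampled day to the next. Per the labels' protocols the biopsies came from the left and the right rear gland in alternation, and fat and connective tissue were dissected away before freezing. The table and the scanner files attach different days to the same measurements, as described in the processing section, and every day given here is that of the table.

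White adipocytes fill the mammary fat pad and give way to milk-secreting epithelium during pregnancy and lactation. They release the hormones adiponectin (ADIPOQ) and leptin (LEP), coat their single large lipid droplet with perilipin 1 (PLIN1), and break down its triglyceride in sequence with adipose triglyceride lipase (PNPLA2) and hormone-sensitive lipase (LIPE). FABP4 carries fatty acids in the cytosol of adipocytes, and also of capillary endothelium, macrophages and, in ruminants, the lactating mammary epithelium, where it belongs to the machinery that takes up fatty acids for milk fat.

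The levels of each gene rest on a single 60-base probe, and the first 30 bases of these 6 probes are shown because they define what was measured in each case. The file headers place them on the cattle assembly UMD 3.1, and whether a position is coding or untranslated was not analysed here.
ADIPOQ: ctcaaggatctgttgtgtagtggtaatgga
PLIN1: agccacatagtaagtgcttcataatataga
LIPE: atcgtcaagaatcccttcatgtcaccgctg
FABP4: aatggatgacgtttgcatcgaactccatga
LEP: aagaagaaaatacctaagaccataacagca
PNPLA2: ctccgccggcttcatttttcatgtttctga
The ADIPOQ probe lies on the minus strand at chr1:81006641-81006700, and the PLIN1 probe on the minus strand at chr21:21502832-21502891. The LIPE probe lies on the plus strand at chr18:51226386-51226445, and the FABP4 probe on the minus strand at chr14:46833756-46833815. The LEP probe lies on the plus strand at chr4:93266004-93266063, and the PNPLA2 probe on the minus strand at chr29:50742413-50742472. Other probes of the same gene told how far the choice of probe mattered. The second ADIPOQ probe, 1268 bases away, followed the first over the 36 arrays with r = 0.91, and the second PLIN1 probe, 1077 bases away, with r = 0.99. For LIPE, probes 96 and 8350 bases away gave r = 0.89 and r = 0.81. FABP4 and PNPLA2 have 1 probe each.

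Leptin is the exception. The LEP probe in the table was well above the local background on 36 of 36 arrays, whereas the 2 LEP probes outside the table were so on 3 and on 9 of 36. Their r with the probe used was 0.66 and 0.63, but their Spearman correlations with it were only 0.28 and 0.36. The 3 arrays on which the first of these was above background were all from animal 2, at day -15, +30 and +60. The second was at -8.76 or lower and not above background on the 4 arrays of day -30. At day +1 it was above background on 4 of 4, at -2.96, -6.39, -4.54 and -5.56 in animals 1 to 4, so that these days did not overlap. Its other arrays above background were those of animal 2 at day -15 (-3.68), +15 (-4.92), +30 (-0.52) and +60 (0.49) and of animal 4 at day +240 (-5.36). Differences between days in the probes outside the table were not tested. Levels of LEP below are therefore those of 1 probe that the other probes for the gene follow only in part. Among the other probes used, ADIPOQ was above background on 35 arrays and PLIN1, LIPE, FABP4 and PNPLA2 on 36.

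Array brightness, as the 75th percentile of the processed signal, ran from 1029 to 6450 intensity units, and 68.6% to 89.3% of spots were well above background. At day +15 (1029 to 2114), +60 (1278 to 2512), +180 (1529 to 4357) and +240 (1273 to 3883) the brightest array stayed below the dimmest of day -30 (4854 to 5752). By the table's record each day was on 1 slide, so that slide and day cannot be told apart. Animal 4 at day +120 and +180 stood apart with little milk protein mRNA, its beta-casein (CSN2) levels being -0.98 and -1.01 where every other array of the series lay between 4.03 and 8.74. Levels are log2 values with 0 at the 75th percentile of the array, and a difference of 1 is a factor of 2. They follow the brightness of a probe, so levels of different genes are not compared. Differences between days were tested with limma (moderated F test over 9 days, and contrasts of 2 days), with Benjamini-Hochberg adjustment over all 20110 features and a threshold of 0.05 for the adjusted p.

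Across the 9 days, 1 of 6 members passed the F test, FABP4 (adjusted p = 0.0189), against 42.3% of all features, 8500 in number. FABP4 was higher at day +15 and +60 than at day -30, and PNPLA2 was higher at day +180. ADIPOQ, PLIN1, LIPE and LEP passed in no comparison between days, their adjusted p in the F test being 0.385, 0.380, 0.153 and 0.669. ADIPOQ and PLIN1 nevertheless spanned the widest ranges of the 6 genes, and they did so between animals and arrays within a day.

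ADIPOQ, the gene of the hormone adiponectin, ran from -6.12, a value not well above background, to 2.22 over the 36 arrays. At day -30 its level was -2.83, -0.98, -0.67 and -1.15 in animals 1 to 4. At day -15 it was -1.92, 0.77, -1.82 and -2.76 in the same order, and at day +1 it was -4.00, -0.98, -2.30 and -2.73. Before and at calving, animal 2 thus had the highest or the second highest level and animal 1 the lowest or the third. The level was -2.75, -2.85, -0.72 and -3.12 at day +15 and -3.61, 2.22, -1.68 and -0.85 at day +30. At day +60 it was -3.63, 1.66, -1.04 and -3.24. Between animals 1 and 2 this is a difference of more than 5 log2 units on both of the later days, while animals 3 and 4 changed places. Values of -3.54, -1.50, -1.93 and -2.25 followed at day +120. At day +180 they were -6.12, 0.46, -2.23 and -1.21, the first of them not well above background, and at day +240 they were -5.55, -4.00, -2.91 and -2.72. Day +240 had the lowest mean of any day, -3.79 ± 1.30 (SD, n = 4), and the groups of day +240 and day -30 met only through animal 1, at -2.83 in day -30. The change from day -30 was -2.38 ± 1.07 (log2, SE) with 4 of 4 animals lower, and it did not pass (limma, adjusted p = 0.127).

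The day means of ADIPOQ, from high to low, were -0.98 at day +30, -1.41 at day -30, -1.43 at day -15, -1.56 at day +60, -2.28 at day +180, -2.30 at day +120, -2.36 at day +15, -2.50 at day +1 and -3.79 at day +240. The SD within a day was between 0.88 and 2.79. Every step in this order up to day +1 lay within it, and the last, to day +240, was about as large as the SDs of 1.25 and 1.30 of its days. Its pooled SD within days of 1.77 was larger than that of 99.2% of all features, whose median was 0.46. Day accounted for 21.1% of the sum of squares of ADIPOQ and animal for 44.5%, where the median feature had 40.2% and 8.09%. That animal share was above that of 98.0% of the features. Animal 2 had the highest ADIPOQ level at 6 of 9 days and animal 1 the lowest at 7 of 9. Position on the slide and animal cannot be told apart, as each animal had the same position at every day.

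**Figure D1:**
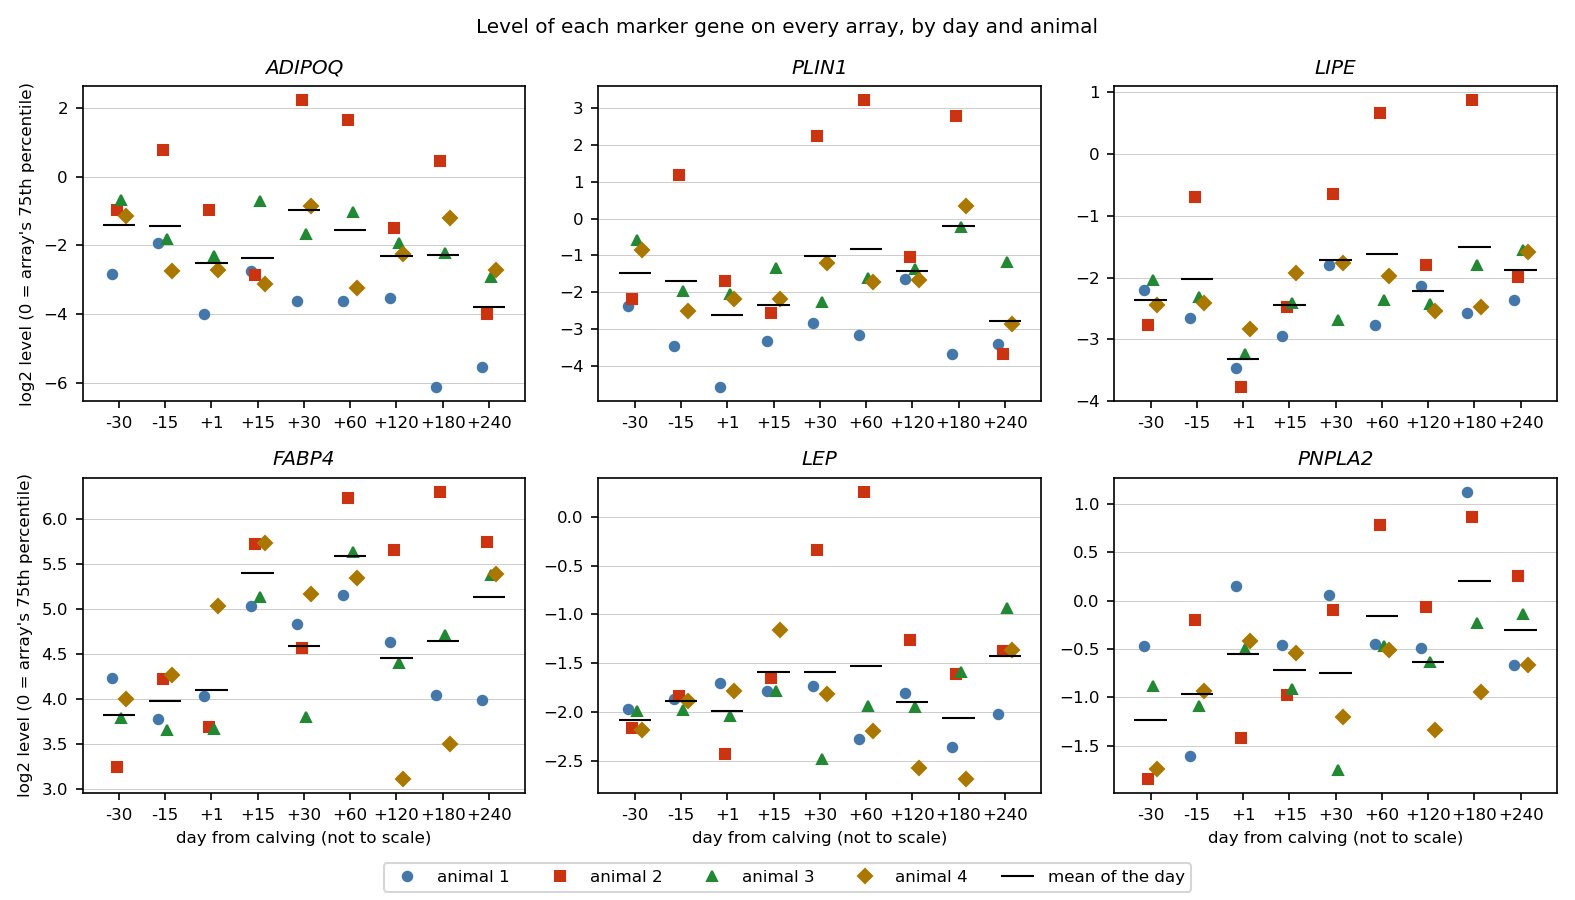
Level of the 6 marker genes (log2, 0 at the 75th percentile of the array) on each of the 36 arrays, by day from calving, with 1 symbol per animal and a bar at the mean of the 4 arrays of a day. Animal 2 stands above the other animals in ADIPOQ, PLIN1 and LIPE at day -15, +30, +60 and +180 (in ADIPOQ it reaches 2.22 at day +30), whereas the FABP4 arrays of day +15 and +60 all lie above those of day -30.

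PLIN1, the perilipin that coats the adipocyte's droplet and gates its breakdown, ran from -4.58 to 3.22, a 223-fold range. Its levels in animals 1 to 4 were -2.38, -2.19, -0.57 and -0.84 at day -30. They were -3.46, 1.20, -1.98 and -2.51 at day -15 and -4.58, -1.70, -2.05 and -2.20 at day +1. Animal 2 was the only one to rise above 0 before day +30. In early and mid lactation the levels were -3.34, -2.57, -1.34 and -2.18 at day +15 and -2.83, 2.24, -2.27 and -1.22 at day +30. At day +60 they were -3.16, 3.22, -1.62 and -1.72. The level of animal 2 at day +60 was the highest of all 36. Later, values of -1.63, -1.05, -1.36 and -1.67 were found at day +120 and -3.68, 2.79, -0.22 and 0.34 at day +180. Values of -3.40, -3.68, -1.19 and -2.87 were found at day +240. At day +120 the 4 animals lay within an SD of 0.29, and at day +60, with an SD of 2.79, animal 2 lay over 4 log2 units above the others. The highest day mean, -0.19 ± 2.67 (SD, n = 4) at day +180, and the lowest, -2.79 ± 1.12 at day +240, differed by -2.59 ± 1.10 (SE), with 3 of 4 animals lower (adjusted p = 0.306), and by -1.30 without animal 2. Between them, in falling order, came day +60 (-0.82), +30 (-1.02), +120 (-1.43), -30 (-1.49), -15 (-1.69), +15 (-2.36) and +1 (-2.63), each step within the larger SD of its days. Animal 2 was again highest at 6 of 9 days and animal 1 lowest at 7 of 9, and animal accounted for 36.4% of the sum of squares and day for 21.8%.

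LIPE, hormone-sensitive lipase, varied less, from -3.77 to 0.87, with an SD within days of 0.89. Its 4 highest levels all came from animal 2, which had -0.70 at day -15, -0.65 at day +30, 0.66 at day +60 and 0.87 at day +180. In animals 1, 3 and 4 the level stayed between -3.46 and -1.55 over all days. At day +1 the levels were -3.46, -3.77, -3.23 and -2.84 in animals 1 to 4, below the -2.20, -2.76, -2.04 and -2.44 of day -30 without overlap. This difference of -0.96 ± 0.57 (SE), with 4 of 4 animals lower, did not pass in the fit to all arrays (adjusted p = 0.347). It passed when the 8 arrays of these days were fitted alone (adjusted p = 0.017), a fit that leaves out the arrays of other days. Why the 2 fits differ was not tested. A separate fit of this kind, to the arrays of day +240 and -30 alone, called the ADIPOQ change at day +240 (adjusted p = 0.0391). Day means ran from -3.32 ± 0.39 (SD, n = 4) at day +1 through -2.44 (+15), -2.36 (-30), -2.22 (+120), -2.02 (-15), -1.87 (+240), -1.72 (+30) and -1.61 (+60) to -1.50 ± 1.62 at day +180. Only the step from day +1 to the next was as large as the spread of both its days.

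These 3 genes varied together from array to array. Over the 36 arrays the Pearson correlation of ADIPOQ with PLIN1 was 0.83 (Spearman 0.76), of PLIN1 with LIPE 0.78 (0.54) and of ADIPOQ with LIPE 0.54 (0.26). The arrays share animals and days and are not independent, so these values are descriptions. After subtraction of the day means they were 0.90, 0.83 and 0.67. The ADIPOQ and PLIN1 relation held within the 27 arrays of animals 1, 3 and 4, at 0.67. There that of PLIN1 with LIPE was 0.44 and that of ADIPOQ with LIPE 0.12, so that both rested in part or largely on animal 2. Without the 2 arrays farthest from the median of the first gene the 3 correlations were 0.76, 0.60 and 0.34. Among 11573 other genes with a symbol of the yak gene table, those most like PLIN1 were CIDEC, a droplet protein of fat cells that promotes the growth of large droplets (r = 0.97), ADIPOQ (0.83) and LIPE (0.78). Those most like ADIPOQ were PLIN1, CIDEC (0.81) and NTM, a neural adhesion protein (0.75). For LIPE they were AQP7, the glycerol channel of fat cells (0.84), CIDEC (0.79) and PLIN1.

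CIDEC was picked for its likeness to PLIN1 over these arrays, so its standing out on the same arrays is no separate evidence. In animal 2 it stood at 2.47 at day -15, 2.66 at day +30, 4.00 at day +60 and 3.39 at day +180, and on no other array of the series did it exceed 0.94. In the remaining 5 samples of animal 2 it was between -2.10 and 0.28. The 4 biopsies of animal 2 with the highest ADIPOQ, PLIN1, LIPE and CIDEC were thus not a single run of days. The other 5, at day -30, +1, +15, +120 and +240, had lower levels of these genes. Animal 2 was still the highest of its day in ADIPOQ and PLIN1 at day +1 and +120. CIDEC did not pass the F test (adjusted p = 0.504). Markers of luminal epithelium were lower on some of these arrays. KRT18, a keratin of secretory epithelium, was 0.25 in animal 2 at day -15 and -0.14 at day +180, the lowest values of the series, and 2.16 and 1.47 at day +30 and +60. The 9 luminal markers as a list deviated from their gene means by a median of -0.48, -0.41, -0.13 and -0.77 on these 4 arrays. The 9 endothelial markers deviated by 0.06, -0.01, 0.35 and 1.37, and the 7 measured fibroblast markers by 0.30, 0.37, 0.14 and 0.54. Immune cell lists moved with some of these arrays. The 6 macrophage markers deviated by 0.05, 0.55, 0.65 and 0.63, the last 3 of which were the highest values of the 36 arrays. The 6 neutrophil markers deviated by 0.06, 2.31, 2.27 and 0.19, with up to 3.78 on arrays of other animals, and the 7 T cell markers by 0.60, 0.05, -0.64 and -1.06. The part of cell composition in the levels was not tested, and in bulk tissue fewer cells of a type and less RNA per cell cannot be told apart.

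**Figure D2:**
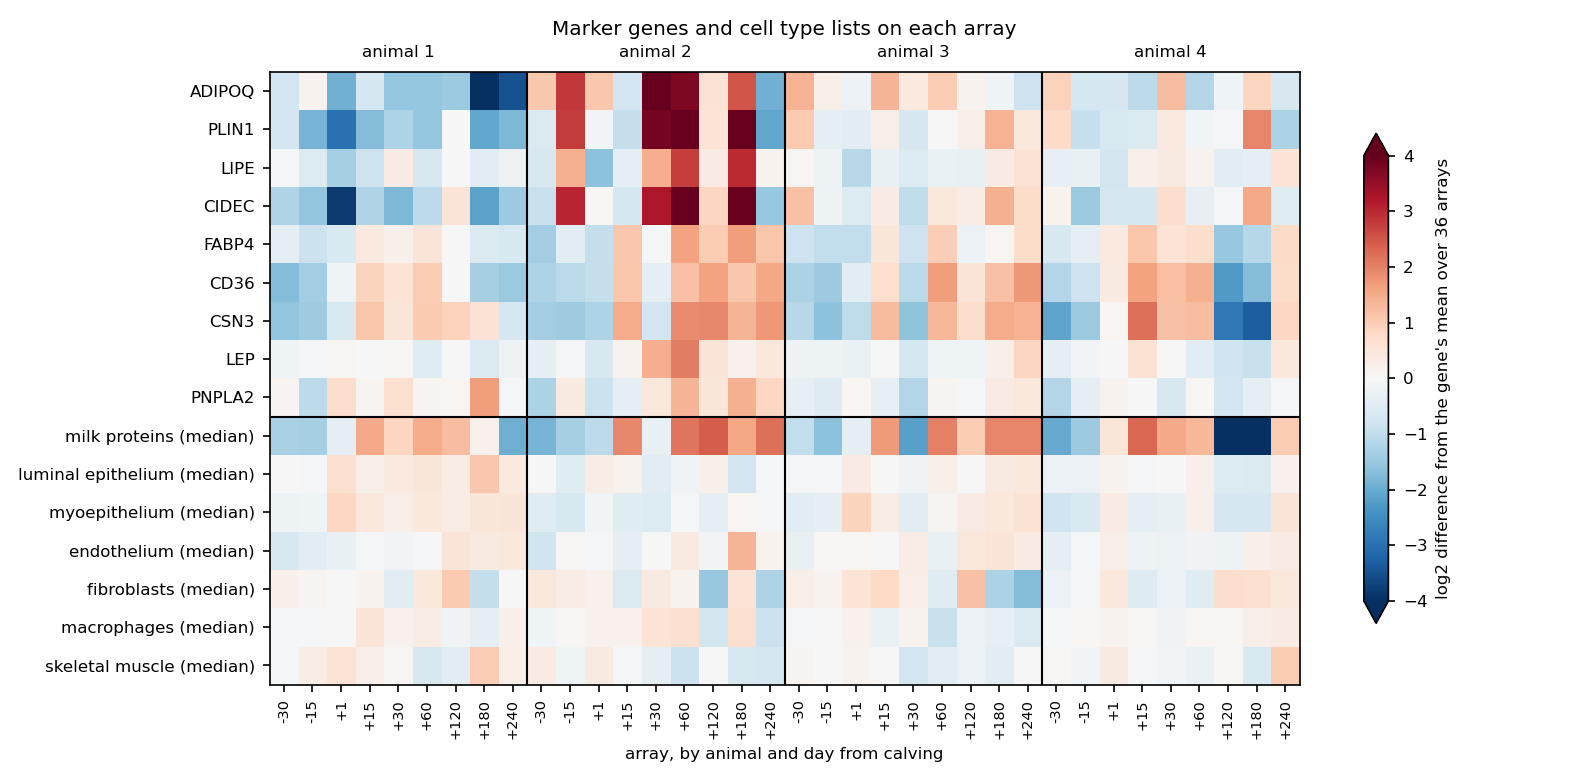
Difference of each array from the gene's own mean over 36 arrays (log2, colour, cut at 4 in both directions) for the 6 markers and CIDEC, CD36 and CSN3, and below the line the median of such differences over each cell type list, with arrays ordered by animal and then by day. ADIPOQ, PLIN1, LIPE and CIDEC are high together in animal 2 at day -15, +30, +60 and +180, and FABP4 follows CD36 and CSN3, both low in animal 4 at day +120 and +180.

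FABP4 had another pattern. Its levels in animals 1 to 4 were 4.23, 3.24, 3.79 and 4.00 at day -30. They were 3.78, 4.22, 3.65 and 4.27 at day -15 and 4.03, 3.69, 3.66 and 5.03 at day +1. Up to the day after calving all but the last of these lay between 3.24 and 4.27. At day +15 the levels were 5.03, 5.72, 5.13 and 5.73, and at day +60 they were 5.16, 6.23, 5.63 and 5.35. Every array of both days was above every array of day -30. At day +30, between them, the levels were 4.83, 4.56, 3.80 and 5.17, which overlapped with day -30. Late lactation gave 4.63, 5.66, 4.40 and 3.11 at day +120 and 4.04, 6.30, 4.71 and 3.50 at day +180. At day +240 the levels were 3.99, 5.75, 5.38 and 5.39. Within each of these days at least 1 array lay inside the range of day -30 or below it.

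Against day -30, FABP4 rose by 1.59 ± 0.47 (log2, SE), a 3.01-fold change, at day +15 (limma, adjusted p = 0.0224, higher in 4 of 4 animals). At day +60 it rose by 1.78 ± 0.47, or 3.43-fold (adjusted p = 0.00668, higher in 4 of 4). It was the only member called at either day, where 17.9% and 29.3% of all features were called, and 10.2% and 12.6% as higher. The changes at day +30 (0.78), +120 (0.63), +180 (0.82) and +240 (1.31, adjusted p = 0.0597) did not pass. From the highest to the lowest, day means were 5.59 (+60), 5.40 (+15), 5.13 (+240), 4.64 (+180), 4.59 (+30), 4.45 (+120), 4.10 (+1), 3.98 (-15) and 3.82 (-30). Neighbours in this order did not differ beyond their SDs of 0.31 to 1.21. From day +1 to day +15 FABP4 differed by 1.30 ± 0.47 without overlap of the groups (adjusted p = 0.139).

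Dimmer arrays had higher FABP4 levels. Its correlation with the log2 brightness of the array was -0.89 over 36 arrays and -0.81 after subtraction of the day means. Over 36 arrays it was 0.10 for ADIPOQ, -0.08 for PLIN1, -0.36 for LIPE, -0.48 for PNPLA2 and -0.51 for LEP. After subtraction of the day means it was -0.38 for LIPE, -0.35 for PNPLA2 and -0.49 for LEP, and -0.09 for ADIPOQ and -0.13 for PLIN1. With brightness as a covariate the change was 0.06 at day +15 and 0.18 at day +60, the adjusted p in the F test was 0.706, and neither day was called. At these days brightness and day cannot be told apart, since all their arrays were dimmer than those of day -30. Quantile normalization between arrays left changes of 0.63 and 0.75, neither of which passed. The F test also missed the threshold without animal 1 (0.0657), animal 2 (0.067) or animal 3 (0.236), and the call at day +15 was lost without any 1 of the 4 animals. Without animal 3 the day +60 call was lost as well. Without the 2 arrays of animal 4 that are low in milk protein mRNA the adjusted p was 0.00238 in the F test, and the calls at day +15 and +60 stayed.

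The genes most like FABP4 were ACSL1, which activates long-chain fatty acids, NDUFA6, a subunit of respiratory complex I, and TOMM7, of the mitochondrial import channel, each with r = 0.92. FABP4 belongs to a list of 7 fatty acid uptake and binding genes. Beside 42.3% of all features, 6 of the 7 passed the F test: VLDLR, CAV1, CD36, FABP4, FABP5 and LPL. All 7, FABP4 itself among them, were called higher than at day -30 at day +15 and +60, where 10.2% and 12.6% of all features were. The median change of the list was 2.43 at day +15 (all features -0.01) and 2.69 at day +60 (all features -0.12). LPL, the lipase that frees fatty acids from blood lipoproteins, rose by 4.76 ± 1.38 and 4.72 ± 1.38 at these days. CD36, a fatty acid carrier of the cell membrane, rose by 2.43 ± 0.66 and 2.69 ± 0.66. As for FABP4, the calls of the list changed once brightness was in the fit, and brightness and day cannot be told apart at these days. With brightness as a covariate 0 of 7 were called at either day and LPL changed by 0.03 and -0.23. With quantile normalization 3 of 7 were called at each. Leaving out 1 animal left 1 to 4 of 7 called at day +15 and 4 to 7 at day +60. FABP4 correlated with CD36 at 0.90 and with LPL at 0.88. It correlated with CSN3, the kappa-casein of milk, at 0.88 (Spearman 0.88; 0.80 after subtraction of day means). With the other members its correlation was 0.09 for ADIPOQ, 0.24 for PLIN1, 0.55 for PNPLA2, 0.56 for LIPE and 0.63 for LEP, and 0.30, 0.38, 0.55, 0.68 and 0.61 after subtraction of day means. With AQP7 it was 0.63 and with CIDEC 0.31.

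In the list of milk proteins, 2 of 6 passed the F test, CSN3 and CSN1S2, where 42.3% of all features did. The median deviation of the list lay between -2.01 and -0.99 on the arrays of day -30, between 1.52 and 2.30 at day +15 and between 1.34 and 2.13 at day +60. In animal 4 it was -5.99 at day +120 and -6.75 at day +180, where FABP4 was 3.11 and 3.50. The endothelial list lay between -0.80 and -0.30 at day -30, between -0.37 and 0.02 at day +15 and between -0.29 and 0.35 at day +60. The macrophage list lay between -0.18 and -0.04, between -0.28 and 0.51 and between -0.90 and 0.65 at these days. FABP4 was thus less like each of the other members than it was like CD36, LPL and CSN3, and least like ADIPOQ and PLIN1. Which cells held the FABP4 RNA was not tested.

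**Figure D3:**
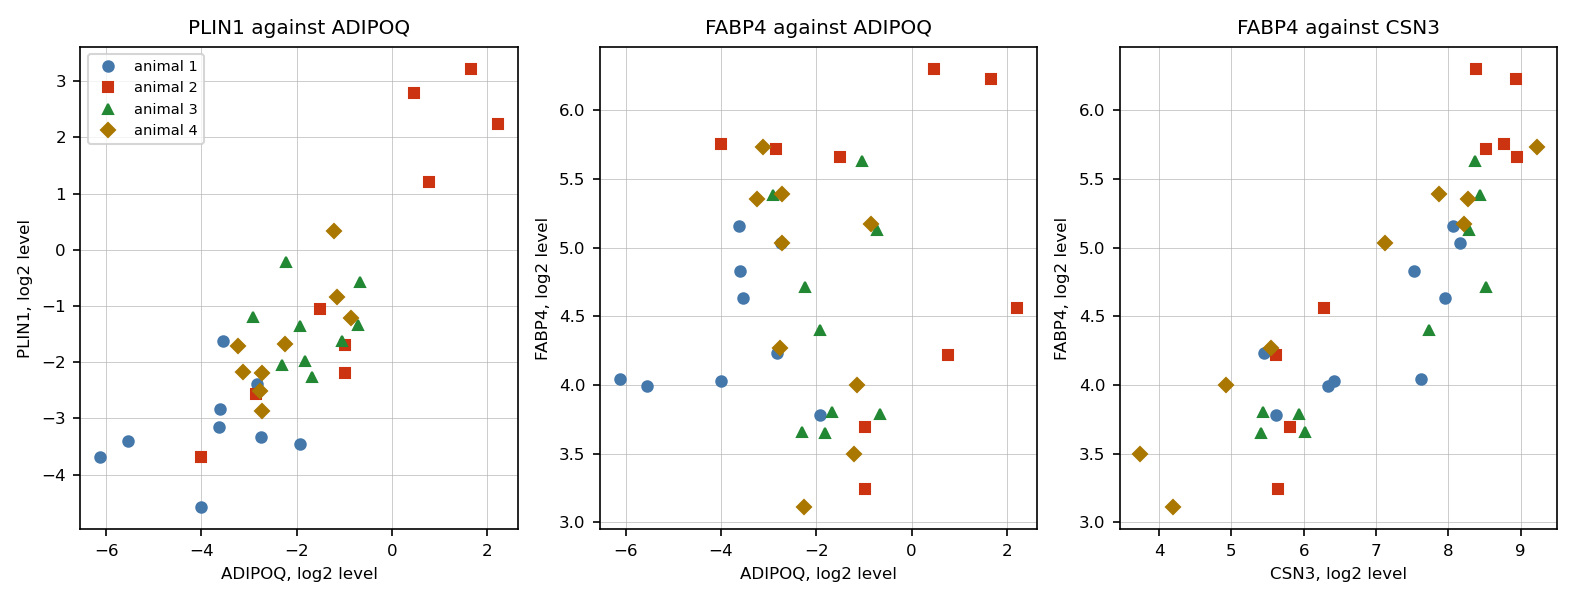
Levels of PLIN1 against ADIPOQ, FABP4 against ADIPOQ and FABP4 against CSN3 (all log2) on the 36 arrays, with 1 symbol per animal. The first pair has r = 0.83, with 4 arrays of animal 2 at the upper right, the second r = 0.09 and the third r = 0.88, with animal 4 at day +120 and +180 at the lower left.

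PNPLA2, which takes the first step in breaking down stored triglyceride in fat cells and many others, had levels of -0.47, -1.84, -0.88 and -1.74 at day -30 in animals 1 to 4. At day +60 the levels were -0.45, 0.78, -0.47 and -0.51, and at day +180 they were 1.12, 0.86, -0.23 and -0.94. Each animal was higher at both days than at day -30, and the groups overlapped. The rise at day +180 was 1.43 ± 0.43 (SE), or 2.70-fold, and passed (limma, adjusted p = 0.0205), 1 of 6 members at a day where 17.4% of all features were called and 6.67% as higher. That at day +60 was 1.07 ± 0.43 and did not (adjusted p = 0.0582). In 9 of 13 alternatives the day +60 change did not pass either, and in the others, with the same sign, it did. The call at day +180 was lost without animal 1 (0.0761), animal 2 (0.164) or animal 3 (0.0535), with brightness as a covariate (0.0915) and when the 8 arrays of these days were fitted by themselves (0.0634). Over the 9 days the F test did not pass (adjusted p = 0.133).

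The remaining days of PNPLA2 differed little. Means ran from -1.23 ± 0.67 (SD, n = 4) at day -30 through -0.96 (-15), -0.75 (+30), -0.72 (+15), -0.63 (+120), -0.55 (+1), -0.30 (+240) and -0.16 (+60) to 0.20 ± 0.96 at day +180, with every step within the spread. Animal 1 had the highest level at 5 days and animal 2 at 4. PNPLA2 correlated with ADIPOQ at -0.11 and with PLIN1 at 0.24, and in the 27 arrays of animals 1, 3 and 4 at -0.68 and -0.35. Genes most like it were ZFYVE21, an endosomal protein (r = 0.81), CAPNS1, the small subunit of calpains (0.80), and SLX1A, a subunit of a DNA repair nuclease (0.78). At day +180, 5 of 9 endothelial markers were also called higher than at day -30, where 6.67% of all features were. That list lay between 0.21 and 1.37 against -0.80 to -0.30 at day -30. How these calls fared in the alternatives is not given here. The part of the endothelial markers in the PNPLA2 difference was not tested.

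LEP, the hormone that reports fat stores, had the narrowest range of day means among the members by the probe in the table, which the second probe outside the table, above background at day +1 and not at day -30, did not share. By the probe used its levels lay between -2.68 and 0.25, and day means between -2.08 ± 0.11 (SD, n = 4) at day -30 and -1.42 ± 0.45 at day +240. The highest 2 levels were those of animal 2 at day +60, 0.25, and at day +30, -0.34, where ADIPOQ and PLIN1 were high as well. At day -15 and +180, the other arrays with high PLIN1, LEP in animal 2 was -1.83 and -1.61, and the nearest other animal had -1.86 and -1.59. From high to low the days were +240 (-1.42), +60 (-1.53), +15 and +30 (both -1.59), -15 (-1.88), +120 (-1.90), +1 (-1.99), +180 (-2.06) and -30 (-2.08). No step was clearly larger than the larger SD of its days, though the step down to day -15 exceeded that day's SD of 0.06. At day +15 LEP lay above day -30 in 4 of 4 animals without overlap, by 0.48 ± 0.40 (SE), and did not pass (limma, adjusted p = 0.402). The largest change from day -30 was 0.65 ± 0.40 (SE) at day +240, with 3 of 4 animals higher (adjusted p = 0.267). Most like it were WDR93 (r = 0.76), YIPF7 (0.67) and PCK1, a key enzyme of glyceroneogenesis in fat and gluconeogenesis in liver (0.66).

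**Figure D4:**
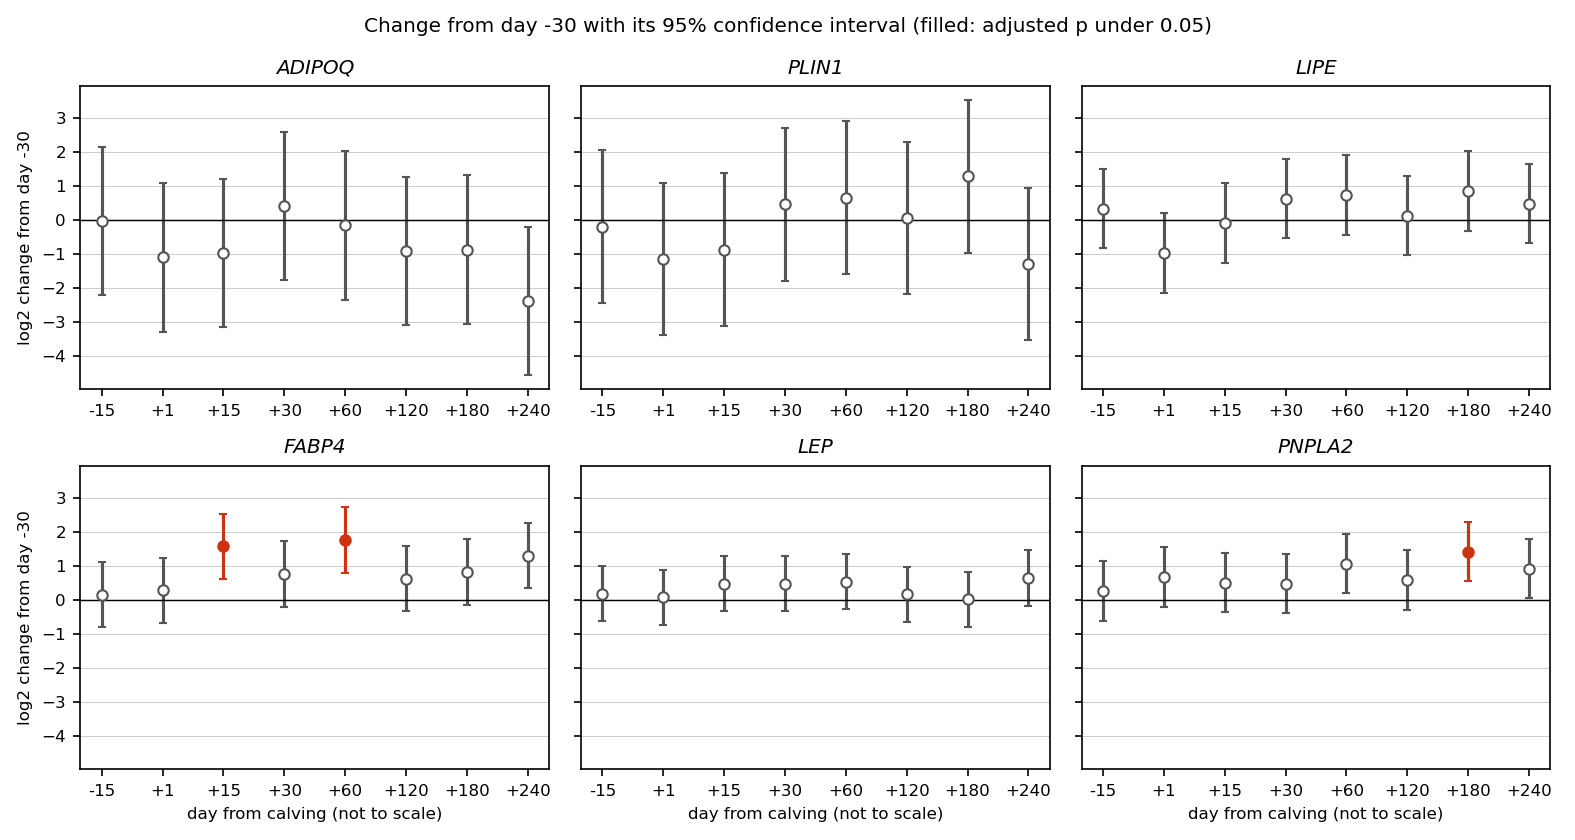
Change of each marker gene from day -30 (log2) at the 8 later days, with the 95% confidence interval of the fit to 36 arrays. Filled points, FABP4 at day +15 and +60 and PNPLA2 at day +180, passed at an adjusted p under 0.05, and the intervals of ADIPOQ and PLIN1 are the widest (-4.57 to -0.20 for ADIPOQ at day +240).

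Taking the comparisons by day, no member was called at day -15 (0.00497% of features called, 1 in number), at day +1 (6.24%), +30 (6.37%), +120 (3.76%) or +240 (13.9%) against day -30. At an unadjusted p under 0.05 the members numbered 0, 0, 0, 0 and 3, beside 208, 4264, 4590, 3814 and 6175 of the 20110 features. The median change of the 6 members was 0.20 at day +15, 0.71 at day +60 and 0.84 at day +180, where all features had -0.01, -0.12 and -0.05. With normexp background correction the median of all features at these days was 0.18, 0.36 and 0.13. Between neighbouring days 0 of 6 members were called in any of the 7 other steps, with 1.79% of features called from day -15 to +1, 0.318% from +1 to +15, 0.0149% from +15 to +30, 0.88% from +30 to +60, 0.895% from +60 to +120, 0.338% from +120 to +180 and 0.801% from +180 to +240. At an unadjusted p under 0.05 there was 1 member in each of 5 of these steps. These were LIPE into day +1, FABP4 into day +15, +60 and +120, and PLIN1 into day +240, named here after their values were seen. In the same order of steps, 3108, 4084, 3318, 3784 and 2709 of the 20110 features were under that unadjusted p.

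The wider gene programme of fat cells was examined through lists of genes with related roles, whose counts in the F test stand against the 42.3% of all features that passed it. Several of these lists are near or below that share. Of 7 adipokines 2 passed the F test, CFD, the complement protease adipsin (adjusted p = 0.000166), and RARRES2, the precursor of chemerin (0.0329). CFD was higher by 1.27 at day +240 with an SE of 0.23, a day at which ADIPOQ had its lowest mean, and its correlation with ADIPOQ was -0.29. Of 4 measured adipokine receptors 0 passed the F test. ADIPOR1 and ADIPOR2, the receptors of adiponectin, were called higher by 1.15 and 1.42 at day +15 and by 1.19 and 1.49 at day +60. CDH13 and CMKLR1, the others measured, changed by -0.06 and -0.56 at day +15 and by -0.27 and -1.28 at day +60, neither called. At these days 10.2% and 12.6% of all features were called as higher. ADIPOR1 and ADIPOR2 followed FABP4 (r = 0.85 and 0.74), and how their calls fared in the alternatives was not examined here. Among 8 droplet coat proteins PLIN4, PLIN5 and CIDEA passed. PLIN4, a coat protein of fat cells, fell by 0.76 ± 0.18 at day +60, a call lost with normexp background correction (adjusted p = 0.128). CIDEA, which in the udder takes part in milk fat secretion, rose by 3.65 ± 1.01 and followed FABP4 (r = 0.88), and with brightness as a covariate its change was -0.05. Without animal 2 that call was lost too (adjusted p = 0.0609). PLIN2, the coat protein of milk fat droplets, did not pass (adjusted p = 0.477).

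Of 5 lipolysis enzymes and cofactors, MGLL passed (adjusted p = 7.8e-05). It cleaves the monoglyceride left by PNPLA2 and LIPE, and rose by 2.17 ± 0.29 at day +180, the day of the PNPLA2 call. That call of MGLL held in all alternatives run. Of 9 genes that control lipolysis 5 passed, the lowest p being those of PDE3B, PTGER3, INSR and PRKAR2B. PDE3B, through which insulin restrains lipolysis, was higher by 1.68 ± 0.50 at day +180, but by 0.72 (adjusted p = 0.368) as the mean of all its probes. That call was also lost with brightness as a covariate (0.0816) and without animal 1 (0.0815), animal 2 (0.113) or animal 3 (0.122). Among 8 adipogenic transcription factors CEBPD and KLF15 passed, and PPARG (0.463) and CEBPA (0.270), the central pair of the fat cell programme, did not. PPARG correlated with FABP4 at 0.74 and with PLIN1 at 0.57. In glycerol and glucose handling GK, GPD1 and SLC2A4 passed among 5. GK, glycerol kinase, rose by 4.39 ± 0.79 at day +60. SLC2A4, the insulin-responsive glucose transporter, was higher by 1.56 ± 0.46 at day +180, a call lost without animal 1, 2 or 4 and when the 8 arrays of these days were fitted alone. Of 4 measured genes of thermogenic fat PPARGC1A, PRDM16 and CIDEA passed, PPARGC1A rising by 3.00 ± 0.53 at day +60. PRDM16 fell by 1.30 ± 0.18 at that day, but with normexp background correction the change was -0.21 and did not pass (adjusted p = 0.636).

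For the other cell types, again beside 42.3% of all features, 2 of 9 luminal markers passed the F test (KRT19 and ESRP1), 4 of 8 myoepithelial (ACTA2, MYLK, OXTR and MYH11), 5 of 9 endothelial (the lowest p in VWF, CLDN5, PECAM1 and TEK) and 0 of 7 fibroblast markers. A single marker passed each for macrophages (CD14, of 6) and T cells (CD2, of 7). Of 6 neutrophil markers S100A8 and S100A12 passed, and of 5 skeletal muscle genes MYH1, MYH2 and TNNT3. All 6 measured cell division genes passed, led by KIF20A, CDC20, CDK1 and CCNB1. All 6 were called lower than at day -30 at day +60, +120, +180 and +240, with median changes of -4.14, -3.51, -3.43 and -3.28. Of all features, 3360, 542, 2168 and 1423 were called lower at these days. With normexp background correction 5 of 6 were called at each of these days, and with brightness as a covariate 3 of 6 at day +240. With 1 animal left out, 1 to 6 of 6 were called at day +120 and +240, and 3 to 6 at day +180. ADIPOQ and PLIN1 showed no called decline at those days. LEPR, UCP1, TP63, COL6A3, CD163, MRC1, JCHAIN, MYL1, MKI67 and TOP2A were not analysed here.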

How the data were processed

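Total RNA of 36 biopsies was labelled with Cy3 and put on 1 cattle array each. The authors deposited a table of log2 values in which the 75th percentile of each array is at 0 (GeneSpring, per the labels), and per the labels tested time with animal as random effect. It holds 34997 of 43653 probes. The scanner files, made per the file headers with Feature Extraction 10.7.3.1, give processed signal intensity and other quality marks. The log2 table was the source of all values here. Each of its columns equals 1 scanner file less a constant (at least 99.98% of probes within 0.001), but in all 36 cases the file belongs to another sample, and its labelled day is the same for 9 columns and different for 27. Days follow the table's sample titles, as the members' rule states, and the scanner files' days were not used. If the table's titles were wrong, every day result could change. Brightness and background marks come from the matched file. By the table's record each slide holds 1 day and each position 1 animal, so that slide and day cannot be told apart.

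The probe with the highest mean stood for a gene, giving 20110 features. limma 3.58.1 in R 4.3.3 fitted day with animal as random block (correlation 0.0531), all tests two-sided and adjusted within each of 15 comparisons, with 4 arrays a day limiting the precision. By the labels the number marks the same animal at every day. Deviations from day means correlated at 0.156 on average within an animal and at -0.0523 across animals. The deviations of a day cancel out over its animals, so the second value largely follows from the first. Each animal also kept the same slide position, so these values cannot tell animal from position. Tested on simulated data for day +30 against day -30 with 20110 features, the code recovered 38 of 100 genes changed by 1 and 67 of 100 changed by 2 (log2), with 9 false calls.

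Named genes are all members, the 3 genes most like each by r, up to 4 genes per list with the lowest p among those passing the F test, and PPARG, CEBPA and PLIN2. CSN2, KRT18, LPL, FABP5, ADIPOR1, ADIPOR2, CDH13 and CMKLR1 fall outside this rule and were chosen after their values were seen. Members and lists were chosen with earlier results of these data known. Of 20110 names, 11574 are symbols of the RefSeq yak table (Bosgru_T2T1.0). The alternatives were no block, a fixed block, a filter on background, the mean of probes, normexp (offset 50), quantile normalization, brightness as a covariate, the compared days alone and each animal left out. An alternative without 2 arrays low in milk protein mRNA was chosen after seeing the data. The result of 1 cell type list is not reported here.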

Additional observations from a re-analysis of the deposited data

Results flagged for a closer look

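In 3 of 54 groups of 4 arrays (6 genes at 9 days), 1 array stood far from the other 3 by Dixon's criterion, and chance alone flags about 1 in 20 groups. ADIPOQ at day +15 was -0.72 in animal 3, 2.04 log2 units above the next array. LEP at day +60 was 0.25 in animal 2, 2.19 above the next, and PNPLA2 on the same array was 0.78, 1.22 above the next. The array of animal 2 at day +60 also had the highest PLIN1 (3.22) and CIDEC (4.00) of the series.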

How the results depend on the processing

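The F test called 1 member in the main fit. It called 0 with quantile normalization or brightness as a covariate, 0 to 1 with 1 animal left out, and 2 once the 2 arrays with little milk protein mRNA were left out (PNPLA2 joining, adjusted p = 0.037). Features called numbered 4662 with normexp against 8500, and 2116 to 6324 with 1 animal left out. Against day -30 at day +15, 0 members were called with quantile normalization, brightness or any animal left out. At day +60 there were 0 with brightness, 2 with normexp, 2 without the 2 arrays and 0 to 2 with 1 animal left out. These counts do not name the members: FABP4 was not called at day +60 with quantile normalization, and PNPLA2 was called in some alternatives though not in the main fit. At day +180 there were 0 with brightness or the days fitted alone, 2 without the 2 arrays and 0 to 1 with 1 animal left out. At day +240 there was 1 with the days alone (ADIPOQ), 1 without the 2 arrays and 0 to 1 with 1 animal left out. With the days alone there was 1 at day +1 against day -30, and 2 at day +15 against day +1 (LIPE and FABP4). The cause of these differences was not tested.

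Directions of changes that were not called turned under brightness as a covariate for LEP at day +15 (-0.28), +60 (-0.25) and +240 (-0.05), FABP4 at day +30 (-0.01), +120 (-0.34), +180 (-0.20) and +240 (-0.11), LIPE at day +60 (-0.14) and PNPLA2 at day +15 (-0.16), all against day -30. With 1 animal left out, LEP at day +60 ran from -0.08 to 0.82, LIPE at day +60 from -0.14 to 1.19 and LIPE at day +180 from -0.06 to 1.28, negative without animal 2. Changes smaller than their SE, and steps between neighbouring days with an unadjusted p of 0.05 or more, were not followed. Without the replicate block FABP4 kept its calls (F test 0.0266, features called 7434), as it did with a fixed block (0.0195), and neither changed another call of a member. Over all alternatives features called ranged from 596 to 5122 at day +15 (main fit 3609), 2615 to 6910 at day +60 (5892) and 1277 to 5563 at day +180 (3509). Called features higher at day +60 were 83.8% with normexp against 43.0%, at day +15 69.8% (46.8% with quantile normalization) against 57.1%, at day +180 55.6% against 38.2%, and at day +240 62.9% against 49.2%. A probe near background gives only a bound: ADIPOQ in animal 1 at day +180 is such a value.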
